A study of Solanum pimpinellifolium with 60 samples.

Results

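The genes described here lie within the fas inversion of tomato chromosome 11, between SlCLV3 and SlYABBY2b, the genes at its breakpoints. They are the 42 genes of the count table, of 34725 in all, whose identifiers fall between those of SlCLV3 (Solyc11g071380) and SlYABBY2b (Solyc11g071810), both left out. The assay was 3′ Tag RNA-seq, in which reads come from the 3′ ends of mRNAs alone, in 4 genotypes at 5 stages, giving 20 groups of 3 replicates. Tissue came from greenhouse plants 5 to 7 weeks old. The SYM is the sympodial meristem at the shoot tip, the F&IM holds floral and inflorescence meristems together, and the other 3 stages are buds taken 2, 4 or 6 days after the flower was initiated (dpi).

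The fas near-isogenic line (NIL) carried the inverted segment of Solanum lycopersicum cv. Orange Strawberry in the wild species Solanum pimpinellifolium LA1589, and the lc/fas NIL carried this segment together with the lc segment near SlWUS. The lc NIL carried the lc segment alone, and the wild type (WT) carried neither. All 4 shared the LA1589 background after repeated backcrossing. In the text, carriers are fas and lc/fas (30 libraries) and non-carriers are lc and WT (30 libraries), so that each stage sets 6 carrier libraries against 6 non-carrier libraries. The introgressed segment holds the whole inversion and some sequence beyond it, and reads were aligned to the genome of S. lycopersicum, the species the segment came from. The inverted order, the S. lycopersicum alleles of the segment and a difference in how well reads of the alleles align cannot be told apart in these lines. A level below is therefore the number of reads assigned to a gene, in reads per 1000000 counts of a library (RPM), and a gene that rose or fell did so in that number.

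A chromosomal inversion turns a stretch of DNA around without removing it. The genes at its ends are cut off from the regulatory DNA that lay beyond the breakpoint, whereas genes further in keep their neighbours and change only their place and direction on the chromosome. Alleles of an inverted and an uninverted chromosome also rarely recombine, so that the genes between the breakpoints are inherited together as 1 block. The fas allele is known for its effect on SlCLV3, which encodes the peptide that limits the stem cell population of the meristem. The study's supplements pair 14 of the 42 with an Arabidopsis homolog. These 14 include parts of the ribosome and of the mitochondrial respiratory chain, a calcium sensor, enzymes of the cell wall and of phenylpropanoid synthesis, proteins of the microtubule cytoskeleton and a disease resistance protein. The roles given below are those of the Arabidopsis homologs. No gene sequence or annotation of the build used by the files was at hand, so genes are ordered by identifier.

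In units of 1000000 counts, library totals lay between 0.441 and 9.17 (median 4.71), and the lowest was that of fas at 6 dpi, replicate 3. The summed RPM of 3 small-subunit Rubisco genes, markers of green tissue, overlapped between carriers and non-carriers at every stage. Both breakpoint genes were lower in carriers over the 5 stages, SlCLV3 with a log2 fold change of -0.49 (standard error 0.102, adjusted p = 0.00170) and SlYABBY2b, a YABBY transcription factor gene, with -2.23 (standard error 0.137, adjusted p = 8.92e-19). These and all adjusted p-values below come from edgeR's quasi-likelihood test with Benjamini-Hochberg adjustment over all 18901 genes that passed a filter on low counts, and an adjusted p under 0.1 counted as passing. Carriers were set against non-carriers over the 5 stages in a model of stage and genotype. For SlCLV3 the difference changed with stage (adjusted p = 2.75e-04), with a log2 fold change of -1.11 in the SYM (adjusted p = 4.86e-08) and -0.74 in the F&IM (adjusted p = 0.00154), and values of 0.05 at 2 dpi, -0.23 at 4 dpi and 0.66 at 6 dpi that did not pass (adjusted p = 1.00, 1.00 and 0.645). It passed in 3 of the 4 single comparisons, and not in lc/fas against WT (log2 fold change -0.22, adjusted p = 0.652). For SlYABBY2b the difference also changed with stage (adjusted p = 4.93e-04). Its log2 fold change was -0.71 in the F&IM, which did not pass (adjusted p = 0.819). At the other stages it lay between -2.11 (SYM) and -2.97 (4 dpi) and passed.

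Of the 42 genes, 29 passed the filter and 13 did not. Over the 5 stages 13 of the 29 (44.8%) passed the test, against 3.75% of all genes tested. Of these, 5 were higher in carriers (17.2% of the 29, against 2.04% of all genes) and 8 were lower (27.6%, against 1.71%). The size of the difference varied from a log2 fold change of 0.17 to 1.35 among the genes that rose and from -0.24 to -1.25 among those that fell. Genes that rose and genes that fell were interspersed in identifier order. Among the 13, Solyc11g071400 and Solyc11g071750 passed the filter only through libraries of the side where they were higher, so their calls are not independent of the filter. The median size of the log2 fold change, whatever its sign, was 0.21 over the 29 genes, 0.06 over the flanking genes described below and 0.07 over all genes tested, whereas the signed median was near 0 both for the 29 genes (0.0035) and for all genes (8.87e-05). Among the 29, 15 had a positive and 14 a negative log2 fold change.

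**Figure D1:**
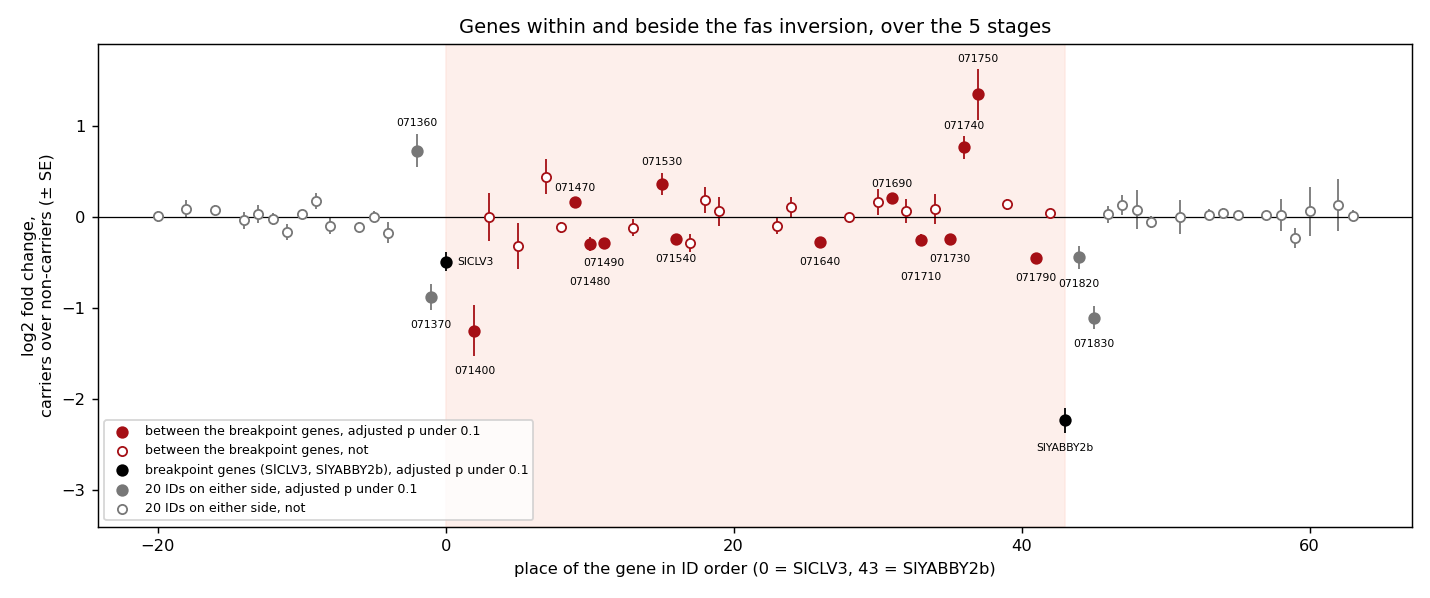
The vertical axis is the log2 fold change of carriers (fas and lc/fas) over non-carriers (lc and WT) over the 5 stages with its standard error, and the horizontal axis is the place of each tested gene in identifier order, not its distance in bases. Filled points passed an adjusted p under 0.1. The 13 filled points between the breakpoint genes lie on both sides of 0, and outside them only the 2 identifiers next to each breakpoint gene are filled.

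The 60 libraries are not independent of each other. Those that share a genotype and a replicate number varied together over the stages (mean residual correlation 0.194 over 120 pairs), and each such set of 5 libraries is called a collection below, although no source says that a number marks 1 harvest. With the counts of each of the 12 collections summed over the 5 stages, which sets 6 carrier sums against 6 non-carrier sums, 1 of the 29 genes passed an adjusted p under 0.1 (7 of 18901 genes, 0.037%), and 11 had an unadjusted p under 0.05 (37.9%, against 3.54% of all genes). A fit with limma-voom that kept the 60 libraries and treated the collection as a block called 5 of the 29. The share of all genes called by that fit is not given here, so this count has no background beside it. The 6 carrier sums did not overlap the 6 non-carrier sums in 3 of the 29 genes, against 0.333% of all genes tested. These were Solyc11g071400, Solyc11g071640 and Solyc11g071790, and in each the carriers were lower. Solyc11g071400 was also the 1 gene that passed on the sums, and it passed the filter only through non-carrier libraries. Solyc11g071750, among the 11, passed the filter only through carrier libraries. The part of these genes in the counts is therefore not independent of the filter.

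**Figure D2:**
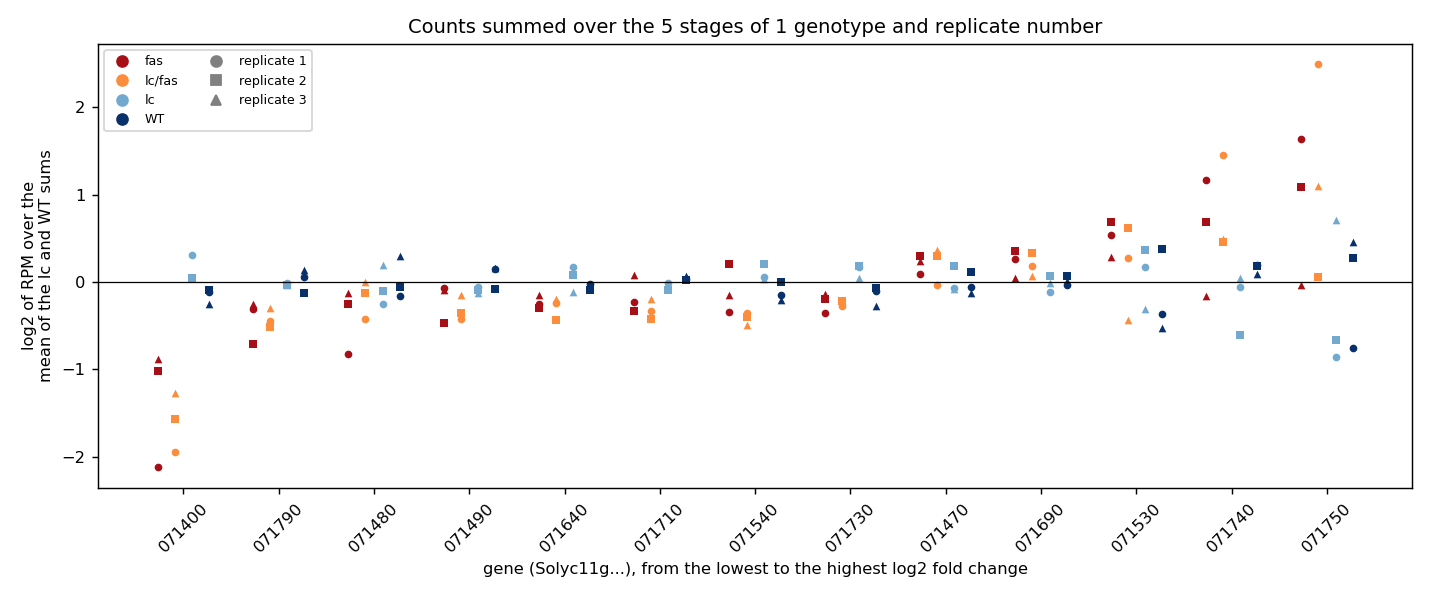
Each point is the RPM of 1 gene in 1 collection, the counts of the 5 stages of 1 genotype and replicate number summed, as the log2 of its ratio to the mean of the 6 lc and WT sums (vertical axis), for the 13 genes that passed the test over the 5 stages (horizontal axis, from the lowest to the highest log2 fold change). Points of fas and lc/fas lie apart from those of lc and WT for Solyc11g071400, Solyc11g071790 and Solyc11g071640, and overlap for the other 10 genes.

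The gene with the smallest p-value was Solyc11g071790, whose homolog SDH6 is a subunit of succinate dehydrogenase, the enzyme that links the citric acid cycle to the respiratory chain of mitochondria. It is 2 identifiers from SlYABBY2b and was 1.36-fold lower in carriers (log2 fold change -0.45, standard error 0.0596, adjusted p = 3.61e-07). In the SYM, Solyc11g071790 had 45.6, 32.7 and 40.9 RPM in the 3 fas libraries and 44.9, 43.5 and 48.3 RPM in the 3 lc/fas libraries, against 58.1, 48.6 and 54.4 RPM in lc and 57.9, 53.3 and 71.5 RPM in WT. In the F&IM, it had 48.8, 38.5 and 47.05 RPM in the 3 fas libraries and 39.2, 47.6 and 42.3 RPM in the 3 lc/fas libraries, against 63.5, 58.5 and 58.3 RPM in lc and 53.03, 54.8 and 63.4 RPM in WT. Every carrier library lay below every non-carrier library at both stages. At 2 dpi it stood at 37.2 ± 7.204 RPM in carriers and 48.6 ± 4.36 RPM in non-carriers (SD, n = 6 each), and at 4 dpi at 31.01 ± 4.04 RPM in carriers and 40.7 ± 5.33 RPM in non-carriers (SD, n = 6 each). At 6 dpi, it had 26.2, 22.05 and 22.7 RPM in the 3 fas libraries and 37.9, 22.98 and 37.3 RPM in the 3 lc/fas libraries, against 37.7, 38.7 and 43.5 RPM in lc and 52.8, 30.5 and 53.5 RPM in WT. At 2, 4 and 6 dpi the libraries of the 2 sides overlapped, and at 6 dpi lc replicate 1 and WT replicate 2 lay within the range of the carriers. The log2 fold change lay between -0.40 and -0.60 at all 5 stages. The collection sums gave 30.5 to 41.8 RPM (median 38.5) in the 6 carrier sums and 45.7 to 55.04 RPM (median 49.1) in the 6 non-carrier sums, with no overlap (edgeR's quasi-likelihood test on the sums, unadjusted p = 3.98e-04, adjusted p = 0.359). The fas and lc/fas lines each passed against WT and against lc.

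Genes for ribosomal proteins differed in direction. Solyc11g071490, whose homolog is a protein L30 of the large cytosolic ribosomal subunit, was among the more abundant genes of the segment and was 1.22-fold lower in carriers (log2 fold change -0.28, standard error 0.0547, adjusted p = 4.98e-04). In the single comparisons fas and lc/fas each passed against WT and neither against lc. At 2 dpi, Solyc11g071490 had 311, 254 and 318 RPM in the 3 fas libraries and 258, 259 and 299.9 RPM in the 3 lc/fas libraries, against 354, 330.1 and 337 RPM in lc and 339, 326 and 322 RPM in WT. Every carrier library was below every non-carrier library there, by a small margin. At the other stages the 2 sides overlapped, as in the F&IM with 283 to 359 RPM (median 313) in the 6 carrier libraries and 343 to 405 RPM (median 371) in the 6 non-carrier libraries. The log2 fold change was between -0.25 and -0.32 at each stage, so that the difference was of similar size from the SYM to 6 dpi. In the collection sums the gene had 297, 226 and 294 RPM in fas and 234, 245 and 283 RPM in lc/fas, against 302, 294 and 288 RPM in lc and 347, 297 and 351 RPM in WT, and only fas replicates 1 and 3 reached the range of the non-carriers. Solyc11g071530, whose homolog is a ribosomal protein of the bacterial type, was 1.29-fold higher in carriers with an adjusted p close to the threshold (log2 fold change 0.37, standard error 0.121, adjusted p = 0.0955). Its level was low, 6.99 ± 2.65 RPM in carriers and 5.498 ± 2.29 RPM in non-carriers (SD over libraries, n = 30 each). It passed in fas against WT and in none of the other 3 single comparisons, and the call was lost in 13 of 23 alternative analyses.

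Solyc11g071740, whose homolog CML38 is a calmodulin-like calcium sensor induced by wounding and low oxygen in Arabidopsis, was 1.701-fold higher in carriers (log2 fold change 0.77, standard error 0.124, adjusted p = 3.48e-05). In the SYM, Solyc11g071740 had 7.68, 8.23 and 4.86 RPM in the 3 fas libraries and 9.63, 6.26 and 7.41 RPM in the 3 lc/fas libraries, against 3.81, 3.83 and 4.73 RPM in lc and 5.52, 3.64 and 5.43 RPM in WT. At 2 dpi, it had 26.4, 18.4 and 10.4 RPM in the 3 fas libraries and 23.2, 13.4 and 20.01 RPM in the 3 lc/fas libraries, against 10.5, 5.57 and 10.3 RPM in lc and 16.3, 14.9 and 9.37 RPM in WT. In the SYM only fas replicate 3 fell within the range of the non-carriers, and at 2 dpi fas replicate 3 and lc/fas replicate 2 did. At 6 dpi, it had 68.2, 29.2 and 2.27 RPM in the 3 fas libraries and 61.2, 29.8 and 20.2 RPM in the 3 lc/fas libraries, against 16.1, 17.7 and 15.6 RPM in lc and 17.3, 18.6 and 12.2 RPM in WT. Replicate 1 of fas and of lc/fas held by far the highest levels, and fas replicate 3, the shallowest library, held the lowest, from 1 count. At 6 dpi the log2 fold change was 1.31 (standard error 0.266, adjusted p = 0.0418), and this call was lost in 9 of 21 alternative analyses, with log2 fold changes between 0.88 and 1.45 over all 21. It was lost when any 1 of the 3 lc collections was left out, without WT replicate 1 or 3, without replicate 1 of fas or of lc/fas, with no filter, and with the libraries of the stage alone. The call over the 5 stages stood with each collection left out in turn and under limma-voom with the collection as a block. In the collection sums the gene had 26.7, 19.2 and 10.6 RPM in fas and 32.6, 16.3 and 16.7 RPM in lc/fas, against 11.4, 7.79 and 12.3 RPM in lc and 13.6, 13.5 and 12.6 RPM in WT, and only fas replicate 3 lay within the range of lc and WT (edgeR's quasi-likelihood test on the sums, unadjusted p = 0.00535, adjusted p = 0.864).

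The next identifiers, Solyc11g071750 and Solyc11g071760, have no homolog in the study's supplements, and both were also higher in carriers. Solyc11g071750 had 194 counts in the 30 carrier libraries and 72 in the 30 non-carrier libraries, a mean of 1.19 ± 1.06 RPM in carriers and 0.477 ± 0.453 RPM in non-carriers (SD over libraries, n = 30 each), and was 2.54-fold higher in carriers (log2 fold change 1.35, standard error 0.276, adjusted p = 0.00133). The gene passed the filter on low counts through carrier libraries alone. Its highest non-carrier library held 1.902 RPM, below the level that the filter asks for in 3 libraries. The test of this gene as higher in carriers is therefore not independent of that selection. At 6 dpi, Solyc11g071750 had 2.71, 1.79 and 2.27 RPM in the 3 fas libraries and 5.12, 1.41 and 1.68 RPM in the 3 lc/fas libraries, against 0.141, 0.4905 and 0.864 RPM in lc and 0.692, 0.412 and 1.14 RPM in WT. All 6 carriers were above all 6 non-carriers at 6 dpi, fas replicate 3 from 1 count, whereas at 4 dpi the sides overlapped widely, with 0 to 1.91 RPM (median 0.981) in the 6 carrier libraries and 0.354 to 1.902 RPM (median 0.671) in the 6 non-carrier libraries. In the SYM the difference rested on 10 counts in carriers and 2 in non-carriers. In the single comparisons of this gene lc/fas passed against WT and against lc, and fas against neither. The collection sums of Solyc11g071750 overlapped, with 0.465 to 2.67 RPM (median 1.01) in the 6 carrier sums and 0.263 to 0.775 RPM (median 0.437) in the 6 non-carrier sums, and the call was lost on the sums (edgeR's quasi-likelihood test, unadjusted p = 0.0108, adjusted p = 1) and under limma-voom with the collection as a block. Solyc11g071760 did not pass the filter on low counts and was singled out after its values were seen. It had 136 counts in carriers, where 5 of 30 libraries were at 0, and 24 counts in non-carriers, where 15 of 30 were at 0. Its counts were higher in carriers at each stage, with 12 against 2 in the SYM and 32 against 7 in the F&IM. In buds it had 20 counts in carriers against 5 in non-carriers at 2 dpi, 26 against 3 at 4 dpi and 46 against 7 at 6 dpi. Without a filter, where 31952 genes were tested and 1.85% passed, its log2 fold change was 2.36 (standard error 0.324, adjusted p = 6.03e-07), and fas and lc/fas each passed against WT and against lc. The sums per collection were 0.984, 0.723 and 0.266 RPM in fas and 1.43, 0.782 and 0.929 RPM in lc/fas, against 0.0985, 0.120 and 0.145 RPM in lc and 0.403, 0.0675 and 0.137 RPM in WT. Here fas replicate 3 with 4 counts lay below WT replicate 1 with 10 counts, and the other 5 carrier sums were above every non-carrier sum.

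Solyc11g071400, whose homolog is an NB-ARC protein of the family of intracellular disease resistance receptors, showed the largest fall among the 29 genes. It was 2.37-fold lower in carriers over the 5 stages (log2 fold change -1.25, standard error 0.277, adjusted p = 0.00381) and the only gene of the 29 that passed on the collection sums, which were 0.281, 0.602 and 0.664 RPM in fas and 0.317, 0.412 and 0.507 RPM in lc/fas, against 1.51, 1.26 and 1.26 RPM in lc and 1.13, 1.15 and 1.03 RPM in WT (edgeR's quasi-likelihood test, adjusted p = 0.0686). Levels were low, with 65 counts in all carrier libraries and 185 in all non-carrier libraries. The gene passed the filter on low counts through non-carrier libraries alone. Its highest carrier library held 1.17 RPM, below the level that the filter asks for in 3 libraries. The tests of this gene as lower in carriers, and its lack of overlap, are therefore not independent of that selection. In the single comparisons lc/fas passed against WT and against lc, and fas against neither. At 6 dpi, Solyc11g071400 had 0.452, 0.538 and 0 RPM in the 3 fas libraries and 0.545, 0 and 0.933 RPM in the 3 lc/fas libraries, against 4.37, 3.92 and 3.11 RPM in lc and 2.08, 3.299 and 2.84 RPM in WT. At this stage the groups did not overlap, and the gene passed the test within the stage (log2 fold change -2.62, standard error 0.496, adjusted p = 0.0173), on 15 counts in carriers and 102 in non-carriers. This call was lost without lc replicate 1, fas replicate 1 or fas replicate 2, and that over the 5 stages was lost under limma-voom with the collection as a block (adjusted p = 0.107). In the SYM, it had 0.549, 0.797 and 0 RPM in the 3 fas libraries and 0, 0.368 and 0.6895 RPM in the 3 lc/fas libraries, against 0.212, 0 and 0.789 RPM in lc and 0.184, 0.146 and 0.453 RPM in WT. In the SYM the groups overlapped, on 13 counts in carriers and 8 in non-carriers, and the log2 fold change was 0.49. Between these stages it was -0.71 (F&IM), -1.04 (2 dpi) and -1.43 (4 dpi). In non-carriers the mean level was lowest in the SYM (0.297 RPM) and highest at 6 dpi (3.27 RPM), whereas the stage means of carriers stayed between 0.401 and 0.505 RPM. The test of whether the difference changed with stage did not pass for this gene (edgeR's quasi-likelihood test, unadjusted p = 0.0208 and adjusted p close to 1).

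**Figure D3:**
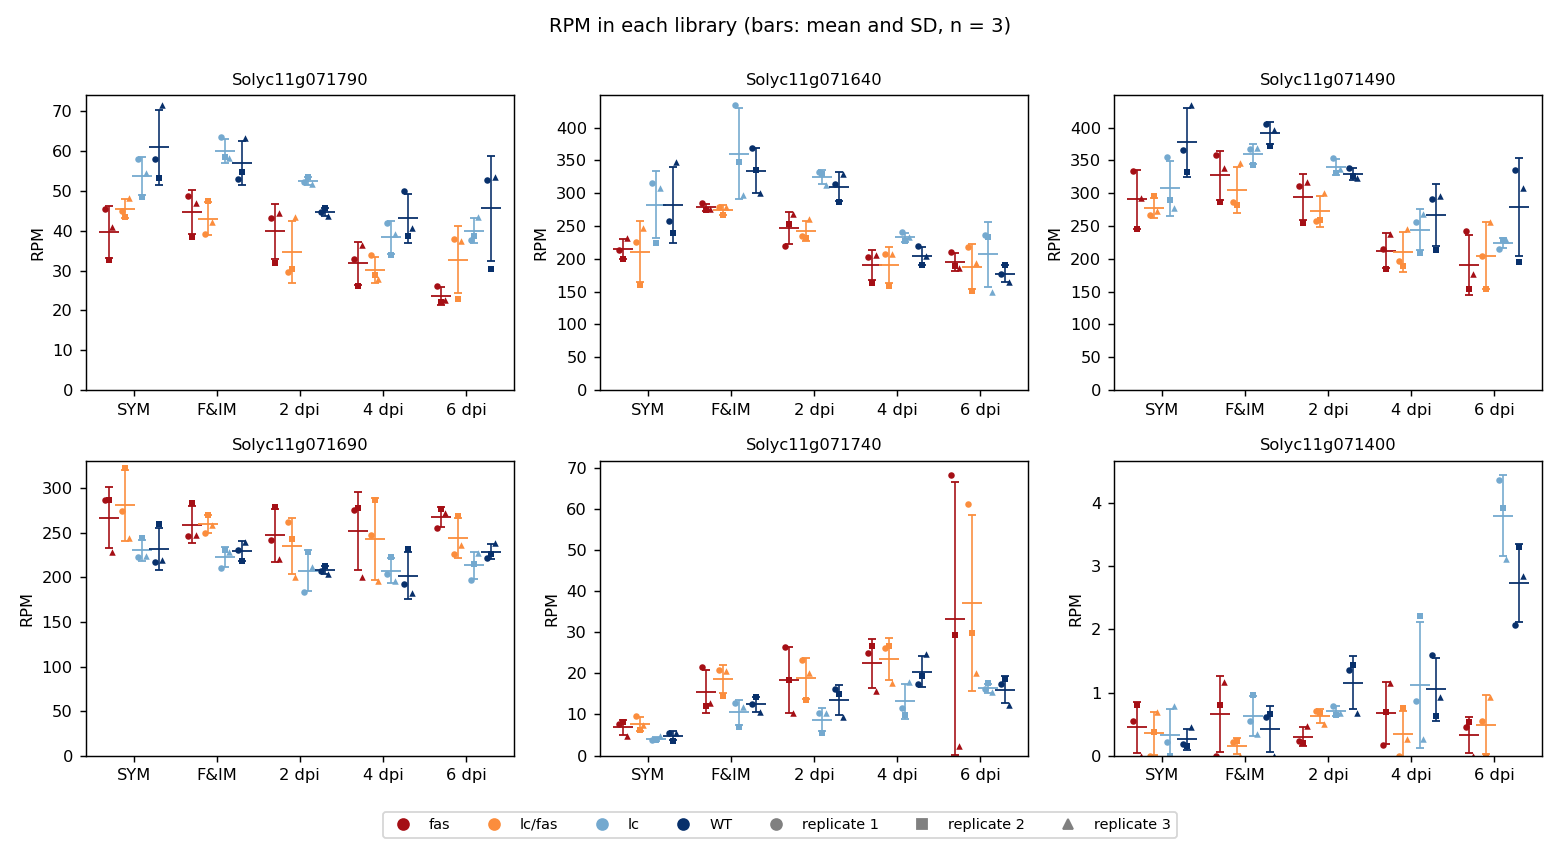
RPM (vertical axes) of 6 genes that passed the test over the 5 stages, in each library (points, shaped by replicate number) of fas, lc/fas, lc and WT at each stage (horizontal axes), with the mean and SD of 3 libraries; SD bars are cut at 0. Solyc11g071790, Solyc11g071640 and Solyc11g071490 were lower and Solyc11g071690 and Solyc11g071740 higher in carriers, and Solyc11g071400 was low in carriers at 6 dpi, where lc and WT ranged from 2.08 to 4.37 RPM.

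Solyc11g071640, whose homolog is a glycosyl hydrolase that acts on polysaccharides of the cell wall, was 1.21-fold lower in carriers (log2 fold change -0.27, standard error 0.0514, adjusted p = 3.33e-04). In the single comparisons fas and lc/fas each passed against lc and neither against WT (log2 fold change -0.22, adjusted p = 0.130 in fas). In the F&IM, Solyc11g071640 had 285, 275 and 276 RPM in the 3 fas libraries and 279, 266 and 279.7 RPM in the 3 lc/fas libraries, against 435, 348 and 298 RPM in lc and 369, 335 and 299.7 RPM in WT. At 2 dpi, it had 219.7, 253 and 268 RPM in the 3 fas libraries and 235, 232 and 260.4 RPM in the 3 lc/fas libraries, against 332, 329 and 313 RPM in lc and 314, 286 and 329.6 RPM in WT. The carriers lay below the non-carriers at both stages without overlap. In the SYM the level was 213 ± 30.8 RPM in carriers and 282 ± 49.03 RPM in non-carriers (SD, n = 6 each) with lc replicate 2 and WT replicate 2 within the range of the carriers, and at 4 dpi it was 191 ± 22.9 RPM in carriers and 219 ± 18.5 RPM in non-carriers (SD, n = 6 each). At 6 dpi the sides were close, with 151 to 219 RPM (median 191) in the 6 carrier libraries and 149 to 237 RPM (median 183) in the 6 non-carrier libraries, and the log2 fold change was 0.02. The collection sums did not overlap, with 199.7 to 245 RPM (median 229) in the 6 carrier sums and 249.8 to 305 RPM (median 264) in the 6 non-carrier sums (edgeR's quasi-likelihood test on the sums, unadjusted p = 0.00296, adjusted p = 0.682).

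The neighbours Solyc11g071470 and Solyc11g071480 are both paired with HCT, the hydroxycinnamoyltransferase of phenylpropanoid synthesis that leads to lignin, and moved in opposite directions. Solyc11g071470 was 1.12-fold higher (log2 fold change 0.17, standard error 0.0412, adjusted p = 0.0111) and Solyc11g071480 was 1.23-fold lower in carriers (log2 fold change -0.30, standard error 0.0752, adjusted p = 0.0143). In the single comparisons Solyc11g071470 passed in lc/fas against WT alone. Solyc11g071480 passed in fas against WT and against lc, and in lc/fas against neither. Its log2 fold change was -0.47 in fas against WT (adjusted p = 0.00787) and -0.12 in lc/fas against lc (adjusted p = 0.966). In the F&IM, Solyc11g071470 had 210.2, 237 and 193 RPM in the 3 fas libraries and 210.1, 222 and 227 RPM in the 3 lc/fas libraries, against 179, 183 and 157 RPM in lc and 167, 201 and 166 RPM in WT. For Solyc11g071470 the fas and lc/fas libraries lay above lc and WT there, apart from fas replicate 3 and WT replicate 2, which crossed. In the SYM, Solyc11g071480 had 41.2, 53.9 and 66.7 RPM in the 3 fas libraries and 39.8, 50.1 and 64.99 RPM in the 3 lc/fas libraries, against 67.8, 47.9 and 76.5 RPM in lc and 63.3, 71.6 and 101 RPM in WT. Solyc11g071480 was highest in WT replicate 3 and lowest in replicate 1 of both carriers, and replicate 1 of fas was the lowest fas library at each of the 5 stages. The profiles over development differed too. In non-carriers the mean of Solyc11g071470 was highest in the SYM (189 RPM) and lowest at 6 dpi (66.6 RPM), whereas that of Solyc11g071480 was lowest in the F&IM (64.5 RPM) and highest at 4 dpi (102 RPM).

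The sequences of the pair were not compared, so whether reads of 1 gene could be assigned to the other was not tested. Summed to 1 value, a step chosen after their values were seen, the pair stood at 223 ± 57.1 RPM in carriers and 217 ± 42.5 RPM in non-carriers (SD, n = 30 each), and the log2 fold change was 0.0033 (standard error 0.0464, adjusted p = 0.996). The call for Solyc11g071480 was lost in 7 of 23 alternative analyses. Among these were leaving out replicate 1 of fas or of lc/fas, or replicate 3 of lc or of WT, and the 4 floral stages alone. The others were the collection sums (edgeR's quasi-likelihood test, unadjusted p = 0.059) and limma-voom with the collection as a block. The call for Solyc11g071470 was lost in 3 of 23, without fas replicate 2, on the collection sums and under limma-voom with the collection as a block.

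**Figure D4:**
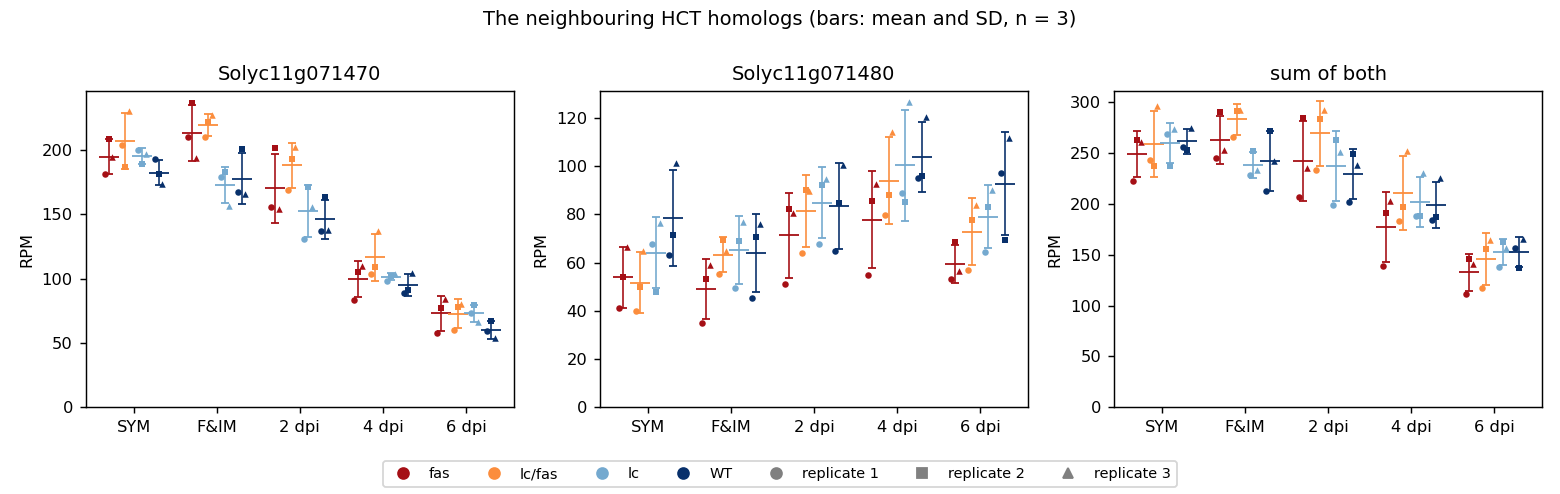
RPM (vertical axes) of Solyc11g071470, Solyc11g071480 and their sum in each library of fas, lc/fas, lc and WT at each stage (horizontal axes), with the mean and SD of 3 libraries. Carriers were higher for the first and lower for the second, and the sum of both had a log2 fold change of 0.0033.

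Among genes of the microtubule cytoskeleton, Solyc11g071730, whose homolog is a kinesin, a motor protein that moves along microtubules, was 1.18-fold lower in carriers (log2 fold change -0.24, standard error 0.0508, adjusted p = 0.00186). At 4 dpi, Solyc11g071730 had 160.2, 152 and 149 RPM in the 3 fas libraries and 153, 159 and 151 RPM in the 3 lc/fas libraries, against 227, 227 and 169.6 RPM in lc and 167, 173 and 169 RPM in WT. All 6 carriers were below all 6 non-carriers at 4 dpi. In the SYM, it had 185, 219.6 and 249.8 RPM in the 3 fas libraries and 253, 206 and 255 RPM in the 3 lc/fas libraries, against 259, 299.7 and 299 RPM in lc and 236, 219 and 154 RPM in WT. In the SYM the lc libraries were the highest and WT replicate 3 the lowest of all 12. This gene was the only one of the 29 that passed in lc against WT, where neither line carries the inversion (log2 fold change 0.30, standard error 0.0716, adjusted p = 0.0368, against 0.323% of all genes), and that call was lost without WT replicate 3, lc replicate 1 or lc replicate 2. Against lc it passed in fas (log2 fold change -0.40, standard error 0.0724, adjusted p = 5.47e-04) and likewise in lc/fas (log2 fold change -0.38, standard error 0.0717, adjusted p = 0.00163), and against WT in neither (log2 fold change -0.10, standard error 0.0722, adjusted p = 0.523 in fas). Solyc11g071570, whose homolog belongs to the gamma-tubulin complex that starts new microtubules, did not pass (log2 fold change 0.07, standard error 0.158, adjusted p = 0.911). Neither did Solyc11g071680, the homolog of TOUSLED, a nuclear kinase required for normal flower development in Arabidopsis (log2 fold change 0.17, standard error 0.144, adjusted p = 0.659), at 18.4 ± 6.21 RPM in carriers and 16.2 ± 6.28 RPM in non-carriers (SD over libraries, n = 30 each).

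Solyc11g071690, with no homolog given, was higher in carriers by a small and even amount (log2 fold change 0.21, standard error 0.0356, adjusted p = 5.60e-05), 1.16-fold. In the F&IM, Solyc11g071690 had 247, 283 and 248 RPM in the 3 fas libraries and 249.6, 269.8 and 259 RPM in the 3 lc/fas libraries, against 210.4, 231 and 228 RPM in lc and 231, 218 and 239.5 RPM in WT. All 6 carriers lay above all 6 non-carriers in the F&IM. At the other 4 stages the means differed in the same direction and the libraries overlapped, as at 4 dpi with 195 to 287 RPM (median 261) in the 6 carrier libraries and 182 to 232 RPM (median 199.95) in the 6 non-carrier libraries, where replicate 3 of fas and of lc/fas were the low carriers. The log2 fold change was between 0.18 and 0.25 at each stage. In the collection sums the gene had 263, 281 and 225 RPM in fas and 248, 275 and 230.3 RPM in lc/fas, against 202, 229 and 218 RPM in lc and 213, 230.1 and 220.1 RPM in WT. Together with Solyc11g071790 it was 1 of 2 genes that passed in each of the 4 single comparisons.

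Solyc11g071540, also without a homolog, was lower over the 5 stages (log2 fold change -0.24, standard error 0.0564, adjusted p = 0.0065), and the 2 carrier lines differed. In lc/fas against lc the log2 fold change was -0.49 (standard error 0.0800, adjusted p = 1.17e-04), and in fas against WT it was 0.0062 (standard error 0.0793, adjusted p = 0.990). The difference between these effects passed the test of lc by fas (log2 fold change -0.50, standard error 0.113, adjusted p = 0.0385), as did 0.164% of all genes and no other of the 29. The call was lost without WT replicate 1, WT replicate 3, lc replicate 2 or fas replicate 2. At 6 dpi, Solyc11g071540 had 15.8, 29.2 and 22.7 RPM in the 3 fas libraries and 18.5, 23.7 and 17.5 RPM in the 3 lc/fas libraries, against 30.3, 31.9 and 28.5 RPM in lc and 21.7, 31.3 and 22.05 RPM in WT. All lc/fas libraries were below all lc libraries at 6 dpi, whereas fas and WT overlapped. In the SYM, it had 19.5, 19.9 and 20.9 RPM in the 3 fas libraries and 20.1, 16.6 and 15.2 RPM in the 3 lc/fas libraries, against 22.9, 29.1 and 26.3 RPM in lc and 25.2, 21.4 and 16.7 RPM in WT. In the SYM lc/fas replicates 2 and 3 were the lowest of the 12 libraries. Solyc11g071710, paired with an Arabidopsis gene, was 1.19-fold lower in carriers (log2 fold change -0.25, standard error 0.0664, adjusted p = 0.0204), at 11.9 ± 2.44 RPM in carriers and 13.7 ± 2.56 RPM in non-carriers (SD over libraries, n = 30 each). Of the single comparisons it passed in lc/fas against WT alone. In its collection sums only fas replicate 3 reached the range of the non-carriers, with 11.9, 11.04 and 14.7 RPM in fas and 11.04, 10.4 and 12.2 RPM in lc/fas, against 13.9, 13.1 and 13.5 RPM in lc and 14.3, 14.1 and 14.7 RPM in WT.

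In the 4 single comparisons of a carrier line with a non-carrier line, 5 of the 29 genes passed in fas against WT (2.22% of all genes), 9 in lc/fas against WT (1.65%), 6 in fas against lc (1.79%) and 8 in lc/fas against lc (0.915%). The last pair differs only in the fas segment, as does the first. Fas against WT and lc/fas against lc share no library, and 12 of the 13 genes had the same direction in both, the exception being Solyc11g071540. These 13 were chosen on the same libraries, so the shared direction is a description. Solyc11g071690 and Solyc11g071790 passed in both. Every one of the 13 passed in at least 1 single comparison. Their choice on the mean of these 4 comparisons favours this, so it too is a description. With 1 collection left out at a time, counts were 2 to 11 for fas against WT and 3 to 11 for lc/fas against WT. They were 4 to 8 for fas against lc and 4 to 10 for lc/fas against lc. Shares of all genes are not given here for these ranges, so the ranges have no background beside them. On the collection sums edgeR called none of the 29 in any of the 4, and an unadjusted p under 0.05 was reached by 5 in fas against WT (2.9% of all genes), 8 in lc/fas against WT (2.33%), 7 in fas against lc (3.06%) and 10 in lc/fas against lc (2.02%). Limma-voom with the collection as a block called 1, 2, 2 and 1 of the 29 in the same order, and its shares of all genes are not given here.

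Within a stage, where 6 carriers were set against 6 non-carriers in a model of the 20 groups, 2 of the 29 genes passed at 6 dpi (0.0317% of all genes), Solyc11g071400 and Solyc11g071740. Solyc11g071400 passed the filter only through non-carrier libraries, so its call at 6 dpi is not independent of the filter. None passed with edgeR in the SYM (0.243% of all genes), the F&IM (0.0952%), or buds at 2 dpi (0.0476%) and 4 dpi (0.0212%), and DESeq2 called 1 gene in the SYM (Solyc11g071640), 3 at 6 dpi and none at the other 3 stages. With the replicate number as a block, edgeR called 3 of the 29 in the SYM (Solyc11g071480, Solyc11g071640 and Solyc11g071790) and 1 in the F&IM (Solyc11g071790). Shares of all genes are not given here for the counts from DESeq2 and from the block. At an unadjusted p under 0.05 6 of 29 were counted for the SYM (4.68% of all genes) and 6 for the F&IM (3.79%). For buds there were 10 at 2 dpi (3.18%), 6 at 4 dpi (2.67%) and 10 at 6 dpi (7.02%). The 2 calls at 6 dpi were lost when the 12 libraries of that stage were fitted alone, and between 0 and 3 genes passed there with 1 collection left out. The share of all genes is not given here for that range. A gene that did not pass within a stage may still differ there. In simulated data, with libraries drawn independently of each other, the test at 4 dpi recovered 12% of 1.3-fold and 80% of 2-fold changes. The test over the 5 stages recovered 81% and 99% of them.

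Carriers and non-carriers did not overlap in 1 of the 29 genes in the SYM (0.434% of all genes) and 3 in the F&IM (0.423%). Among the bud stages there were 2 such genes at 2 dpi (0.254%), 1 at 4 dpi (0.296%) and 2 at 6 dpi (0.138%). Those at 6 dpi were Solyc11g071400 and Solyc11g071750. Both passed the filter only through the side where they were higher, so the count at 6 dpi is not independent of the filter. The test of whether the carrier effect changed with stage passed in none of the 29 with edgeR or DESeq2 (0.0265% of all genes with edgeR), and 1 gene, Solyc11g071400, had an unadjusted p under 0.05 (1.75% of all genes). The log2 fold change had 1 sign at all 5 stages in 14 of the 29 genes (48.3%), against 20.8% of all genes tested. Of the 13 genes called over the stages 11 had 1 sign, the exceptions being Solyc11g071400 in the SYM and Solyc11g071640 at 6 dpi. These 13 were chosen on their effect over the same 5 stages, which favours 1 sign, so this count is a description.

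**Figure D5:**
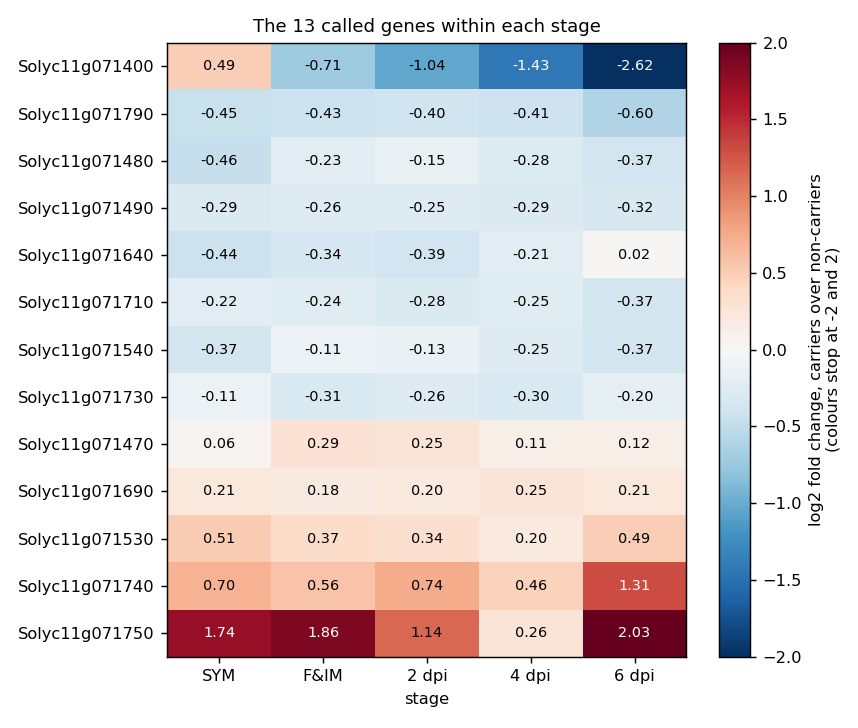
Log2 fold change of carriers over non-carriers within each stage (columns) for the 13 genes that passed the test over the 5 stages (rows, from the lowest to the highest), with 6 libraries against 6 in each cell. Of the rows, chosen on their effect over the same stages, 11 keep 1 sign throughout, and the values of Solyc11g071400 run from 0.49 in the SYM to -2.62 at 6 dpi.

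The 16 tested genes that did not pass included the most abundant of all, Solyc11g071660, which averaged 413 ± 54.3 RPM in carriers and 408 ± 54.7 RPM in non-carriers (SD over libraries, n = 30 each) (log2 fold change -0.0019, standard error 0.0434, adjusted p = 0.998). In the SYM, Solyc11g071660 had 436, 531 and 509 RPM in the 3 fas libraries and 447, 508 and 408 RPM in the 3 lc/fas libraries, against 422, 543 and 498 RPM in lc and 415, 485 and 319 RPM in WT. The 2 sides overlapped and the collection sums spanned 360.4 to 468 RPM (median 409) in the 6 carrier sums and 371 to 444 RPM (median 407) in the 6 non-carrier sums. Solyc11g071550, whose homolog is an amidase, came closest to the threshold (log2 fold change -0.29, standard error 0.10004, adjusted p = 0.126), at 18.98 ± 13.3 RPM in carriers and 21.8 ± 12.7 RPM in non-carriers (SD over libraries, n = 30 each). Its mean in non-carriers was highest at 4 dpi (35.2 RPM) and lowest in the SYM (7.29 RPM). Solyc11g071800, the identifier next to SlYABBY2b, stood at 43.4 ± 6.28 RPM in carriers and 41.4 ± 4.31 RPM in non-carriers (SD over libraries, n = 30 each) (log2 fold change 0.04, standard error 0.0443, adjusted p = 0.723), whereas its neighbours on either side, Solyc11g071790 and SlYABBY2b, were both lower in carriers. The summed RPM of the 42 genes averaged between 1569 and 2025 RPM in carrier groups and between 1616 and 2184 RPM in non-carrier groups.

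The 13 genes that did not pass the filter had 4 to 204 counts each over the 60 libraries and a mean of at most 0.685 RPM, and were not tested. Apart from Solyc11g071760, the largest totals were those of Solyc11g071650, with 87 counts in carriers and 117 in non-carriers, and Solyc11g071670, with 110 and 81. Solyc11g071390, the identifier next to SlCLV3, had 8 counts in carriers and 2 in non-carriers, and Solyc11g071590 had the fewest, with 1 and 3. Both groups of 30 libraries had similar depth, 148 in carriers and 151 in non-carriers in units of 1000000 counts.

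Beyond the breakpoint genes, 4 of the 31 tested genes among the 20 identifiers on either side passed (12.9%), and these were the 2 identifiers next to each breakpoint gene. Solyc11g071360 was higher in carriers (log2 fold change 0.73, standard error 0.185, adjusted p = 0.0148), and Solyc11g071370 (log2 fold change -0.88, standard error 0.139, adjusted p = 1.94e-05), Solyc11g071820 (log2 fold change -0.44, standard error 0.125, adjusted p = 0.0355) and Solyc11g071830, whose homolog is a DnaJ chaperone (log2 fold change -1.10, standard error 0.127, adjusted p = 2.82e-08), were lower. None of the other 27 flanking genes passed with edgeR, and 3 of them had an unadjusted p under 0.05. Of the 31 flanking genes 7 had an unadjusted p under 0.05 (22.6%, against 13.4% of all genes and 55.2% of the 29). The difference between the shares inside and outside the breakpoints was not tested.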

How the data were processed

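The authors deposited whole counts for 34725 genes in 60 libraries, made from reads trimmed with fqtrim and aligned by Rsubread to the tomato genome (ITAG2.4). No source used here states the counting settings, and so whether strand was used. A nameless line, at most 3.01% of a library, was dropped. RPM is a count scaled to 1000000 counts in its library. Each replicate was pooled from many inflorescences.

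Tests were run in R 4.3.3 with edgeR 4.0.16, using TMM, filterByExpr by group, the robust quasi-likelihood test and Benjamini-Hochberg adjustment over all genes tested. Effects over the stages came from a model of stage and genotype, as in the study, and effects within a stage from a model of the 20 groups. The procedure was tested on simulated data. Alternatives were DESeq2 1.42.0, other scalings, filters and thresholds, a replicate block, the collection as a block (limma 3.58.1) or summed, the floral stages or 1 stage alone, and leaving out each collection. Leaving out fas at 6 dpi, replicate 3, and summing the pair paired with HCT were chosen after seeing the data.

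Named with values were tested genes with an adjusted p under 0.1 for the carrier effect, its change with stage or lc by fas, and the most and least abundant gene. Solyc11g071760, Solyc11g071550, Solyc11g071800, Solyc11g071570, Solyc11g071680, Solyc11g071650, Solyc11g071670 and Solyc11g071390 were named outside this rule after their values were seen. Genes, lists and rule were chosen with earlier results of these data known. Pairing by replicate number was checked on correlations of residuals: lc/fas and WT had all 15 correlations over 0.1 (0.173 to 0.822) and count as paired, whereas 13 of 15 were over 0.1 for fas and WT, 11 for fas and lc, and 9 for lc/fas and lc. The main fit did not use the pairing, so the calls of single genes in lc/fas against WT come from an unpaired test.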

Additional observations from a re-analysis of the deposited data

Results flagged for a closer look

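Solyc11g071540, a gene without a homolog in the study's supplements, was flagged because the effect of the fas segment differed with and without lc, by the test of lc by fas. The difference of the 2 effects was -0.50 on the log2 scale (edgeR's quasi-likelihood test, standard error 0.113, adjusted p = 0.0385), from -0.49 in lc/fas against lc and 0.0062 in fas against WT. The call was lost in 7 of 23 alternative analyses, among them both that allowed for the collections.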

How the results depend on the processing

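For carriers against non-carriers over the 5 stages, 11 to 14 of the 29 genes passed with each collection left out in turn, against 13, and no direction reversed for a called gene in any of these analyses or those below. The analyses that allow for libraries of 1 collection deviating together gave fewer calls: with limma-voom 5 (Solyc11g071490, Solyc11g071640, Solyc11g071690, Solyc11g071740 and Solyc11g071790), and on the collection sums 1 (Solyc11g071400). The call of Solyc11g071400 on the sums is not independent of the filter on low counts. For the single comparisons limma-voom gave 1 in fas against WT, 2 in lc/fas against WT, 2 in fas against lc, 1 in lc/fas against lc, and 0 in lc against WT and in lc by fas, and the collection sums gave 0 in each of these 6. The 4 floral stages alone gave 4 in lc/fas against WT and 0 in lc against WT and lc by fas. The cause of these changes was not tested. No shares of all genes are given in this section, so its counts have no background beside them.

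With 1 collection left out, counts ranged from 2 to 11 for fas against WT, 3 to 11 for lc/fas against WT, 4 to 8 for fas against lc, 4 to 10 for lc/fas against lc, 0 to 1 for lc against WT, for lc by fas and in the SYM, and 0 to 3 at 6 dpi. Fas against WT gave 2 without WT replicate 3 or fas replicate 2, 3 without WT replicate 1, 8 without fas replicate 3 and 11 without WT replicate 2. Lc/fas against WT gave 3 without lc/fas replicate 1 and 5 without lc/fas replicate 2 or WT replicate 1, and lc/fas against lc gave 4 without lc replicate 1. With the replicate number as a block the counts were 14 over the 5 stages, 9 in fas against WT, 3 in the SYM and 1 in the F&IM. For lc/fas against WT, where the numbers pair the samples, the block gave 11 against 9, and it moved no other count by over 1.5 times. Within stages DESeq2 gave 1 in the SYM, the libraries of 1 stage alone gave 1 at 2 dpi and 0 at 6 dpi, and the stricter filter gave 1 at 6 dpi. Of 384 analyses of single named genes, 319 kept the call and 65 lost it.

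Depth limits genes near 1 RPM, such as Solyc11g071400 and Solyc11g071750, whose stage values rest on few counts.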

Other observations

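The genes of the segment differed in when they were most expressed. Of the 29 tested genes, the mean of the non-carriers was highest in the SYM for 8, in the F&IM for 6, at 2 dpi for 3, at 4 dpi for 7 and at 6 dpi for 5. Solyc11g071620 had 9.60 RPM in the SYM and 2.05 RPM at 4 dpi in carriers, against 7.90 and 2.09 RPM at the same stages in non-carriers. In the opposite direction, Solyc11g071560 had its highest mean at 6 dpi, with 6.55 RPM in carriers and 5.77 RPM in non-carriers, and its lowest at 2 dpi in carriers (1.74 RPM) and in the SYM in non-carriers (1.11 RPM). Solyc11g071690 changed least over development, 1.13-fold between its highest and lowest stage mean in non-carriers, and Solyc11g071660 and Solyc11g071800 varied by 1.18-fold and 1.19-fold. Solyc11g071750 and Solyc11g071400 varied most, 12.4-fold and 11.01-fold, from few counts. These genes were chosen after their values were seen, and differences between stages were not tested.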
